A study of Mus musculus with 12 samples.

Results

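The Notch pathway genes followed here are 10 genes of the endothelium: the ligands Dll4, Jag1 and Jag2, the receptors Notch1 and Notch4, the target genes Hey1, Hey2, Heyl and Hes1, and the feedback inhibitor Nrarp. They were taken by gene symbol, and all 10 were found among the 24394 genes listed for every library. Gene expression had been measured by 3′ RNA sequencing, which reads a stretch near the end of each transcript, in endothelial cells that FACS had isolated from the lungs of 5-day-old (P5) C57BL/6J pups. The L12YT-ECKO group carried the inducible endothelial VE-cadherin-CreERT2 driver with floxed alleles of Lats1, Lats2, Yap and TAZ. The L12-ECKO group carried the same driver with floxed Lats1 and Lats2 only, and the WT group was wild type. Each group had 4 libraries. Both knockout groups share the driver and the floxed Lats alleles; the labels do not say if the WT mice had the driver or were given its inducer. As no label ties the 4 libraries within a group to different animals, p-values measure the spread between these libraries, which may be technical.

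Notch is a receptor system between touching cells. A ligand of the Delta or Jagged family on one cell pulls on a Notch receptor on its neighbour, the receptor is cut, and its inner domain moves to the nucleus, where it joins the DNA-binding protein RBPJ and switches on genes of the Hes and Hey families. In growing vessels DLL4 on the leading tip cell restrains sprouting in the cells behind it, JAG1 can counter DLL4, and Notch signalling supports arterial identity. LATS1 and LATS2 are kinases of the Hippo pathway that restrain YAP and TAZ, co-activators that bind DNA through TEAD proteins.

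The stretches upstream of 4 of these genes are shown because they belong to the ligand and the inhibitor described most closely below, Dll4 and Nrarp, and to both receptors. The sequences are from RefSeq on GRCm38.p6, the build also called mm10, cover the 250 bases before the RefSeq gene start, and are written 5′ to 3′ on the gene's strand. The promoter table held 7 of the 10 genes; Hey1, Heyl and Hes1 had no entry. Capitals mark letters matching 1 of 3 short motifs searched on both strands: TGGGAA or TTCCCA, the core bound by RBPJ; GGAATG or CATTCC, the core bound by TEAD proteins; and CACGTG, an E-box that reads the same on both strands.
Dll4, chr2:119325534-119325783, plus strand: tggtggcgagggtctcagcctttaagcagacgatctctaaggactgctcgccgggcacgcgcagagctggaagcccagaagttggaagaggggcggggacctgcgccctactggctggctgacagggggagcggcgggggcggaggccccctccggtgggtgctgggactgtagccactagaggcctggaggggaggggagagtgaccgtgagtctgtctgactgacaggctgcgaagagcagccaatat
Nrarp, chr2:25180508-25180757, plus strand: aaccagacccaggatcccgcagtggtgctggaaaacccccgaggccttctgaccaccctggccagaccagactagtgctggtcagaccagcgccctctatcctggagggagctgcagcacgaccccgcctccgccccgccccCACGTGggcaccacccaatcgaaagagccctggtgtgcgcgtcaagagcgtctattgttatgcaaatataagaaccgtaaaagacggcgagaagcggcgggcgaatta
Notch1, chr2:26503823-26504072, minus strand: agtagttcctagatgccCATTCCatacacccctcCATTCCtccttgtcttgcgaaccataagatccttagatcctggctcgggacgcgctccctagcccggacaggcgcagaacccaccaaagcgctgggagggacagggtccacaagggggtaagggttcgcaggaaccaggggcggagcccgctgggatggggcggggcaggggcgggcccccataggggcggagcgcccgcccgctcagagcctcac
Notch4, chr17:34564045-34564294, plus strand: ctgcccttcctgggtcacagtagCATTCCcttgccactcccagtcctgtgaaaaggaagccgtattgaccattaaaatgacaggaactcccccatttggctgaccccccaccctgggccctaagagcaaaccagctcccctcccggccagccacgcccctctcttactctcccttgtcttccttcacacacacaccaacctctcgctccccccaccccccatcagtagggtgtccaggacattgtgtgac

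On the same build, GENCODE M21 places all 10 as protein-coding genes: Dll4 at chr2:119325784-119335962, Jag1 at chr2:137081456-137116644, Jag2 at chr12:112907819-112929776, Notch1 at chr2:26457903-26516663, Notch4 at chr17:34564268-34588503, Hey1 at chr3:8663359-8667256, Hey2 at chr10:30832359-30842801, Heyl at chr4:123233556-123249875, Hes1 at chr16:30064384-30067796 and Nrarp at chr2:25180758-25183339. The windows of Notch1 and Jag2 lie inside their GENCODE spans, since RefSeq starts these genes further in. Those of Jag1, Hey2 and Notch4 run partly into their GENCODE spans.

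Dll4 held no match of the 3 motifs in this window, and neither did Jag1 or Jag2. Nrarp held 1 E-box, from 108 to 103 bases before its start. Notch1 held 2 TEAD matches, from 233 to 228 and from 216 to 211 bases before its start, and Notch4 held 1, from 227 to 222 bases before. Hey2 held the overlapping letters CATTCCCA, which contain both a TEAD and an RBPJ match. Over 32851 windows of the same length across the genome, 12.64% held a TEAD match, against 3 of 7 of these genes. An RBPJ match was in 21.59% of the windows and in 1 of 7 of the genes, and an E-box in 6.02% and in 1 of 7. A match describes the letters only, and no binding was measured.

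The values are log2 expression as normalized by the authors, with no record of read depth. The number of genes above 0 ranged from 9836 to 13060, L12-ECKO replicate 3 having the fewest, and was 11083 to 11260 in WT. The lowest value above 0 was 3.01 to 3.16 in the WT libraries. It was 0.13 to 2.77 in L12YT-ECKO and 0.07 to 4.98 in L12-ECKO. A listed 0 thus covers a different range in different libraries, so low values are not directly comparable between groups. Endothelial markers identify the cells in every library: all 10 of 10 lay above 0, summing to 26662 to 28640 CPM (the normalized values raised from the log2 scale and scaled to a common library total) in L12YT-ECKO, 24579 to 25896 in L12-ECKO and 26562 to 27600 in WT. Of the targeted genes, Wwtr1, which encodes TAZ, averaged 8.81 in L12YT-ECKO, 11.18 in L12-ECKO and 11.81 in WT, and Yap1 averaged 7.72, 9.97 and 9.79 in the same order. Lats2 averaged 8.97 in L12YT-ECKO, 9.93 in L12-ECKO and 8.93 in WT, so it was not lower in the groups labelled as deleted, and Lats1 spanned 0 to 7.90, 0 to 7.40 and 5.32 to 7.45. A 3′ read outside a deleted part checks nothing, and the deleted parts of the 4 genes are not given in the labels. In 5 libraries, L12YT-ECKO replicates 3 and 4 and L12-ECKO replicates 2, 3 and 4, 32 rows of the deposited table are displaced. This was treated as a processing batch, which the rows alone do not establish. None of the 10 genes lies in those rows. Libraries without displaced rows differ too, with 12651 genes above 0 in L12-ECKO replicate 1, and 11320 and 12335 in L12YT-ECKO replicates 1 and 2. Xist exceeded Ddx3y, a sign of female cells, in 1 of 4 L12YT-ECKO, 3 of 4 L12-ECKO and 1 of 4 WT libraries, and within L12-ECKO these are the libraries with displaced rows, so batch and sex cannot be told apart in that group.

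Of the 10 genes, 8 passed the expression filter, which asks for 1 CPM or more in 4 or more libraries, and Hey2 and Heyl did not. A gene was called when its p from limma, a linear model with a shared variance estimate, was under 0.05 after Benjamini-Hochberg adjustment over all 11634 genes tested. In L12-ECKO against WT, 0 of the 8 were called, beside 0.481% of all genes tested; 2 of the 8, Hey1 lower and Nrarp higher, had an unadjusted p under 0.05, beside 12.2% of all genes. In L12YT-ECKO against WT, 0 of the 8 were called, beside 0.0086% of all genes, and 0 of the 8 had an unadjusted p under 0.05, beside 6.24%. In L12YT-ECKO against L12-ECKO, 0 of the 8 were called, beside 0.0688% of all genes, and 3 of the 8, Dll4, Jag2 and Hey1, all higher, had an unadjusted p under 0.05, beside 6.08% of all genes in either direction and 3.98% in this one. This count of 3 depended on single libraries, as leaving out 1 at a time gave 0 to 3 of the 8. It fell to 0 when the library dropped was replicate 3 of L12YT-ECKO or replicate 1 of L12-ECKO. Dropping any WT library left it at 3. The 3 comparisons share their libraries pairwise and are not independent. In bulk RNA, fewer cells of a type and less RNA per cell cannot be told apart.

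**Figure D1:**
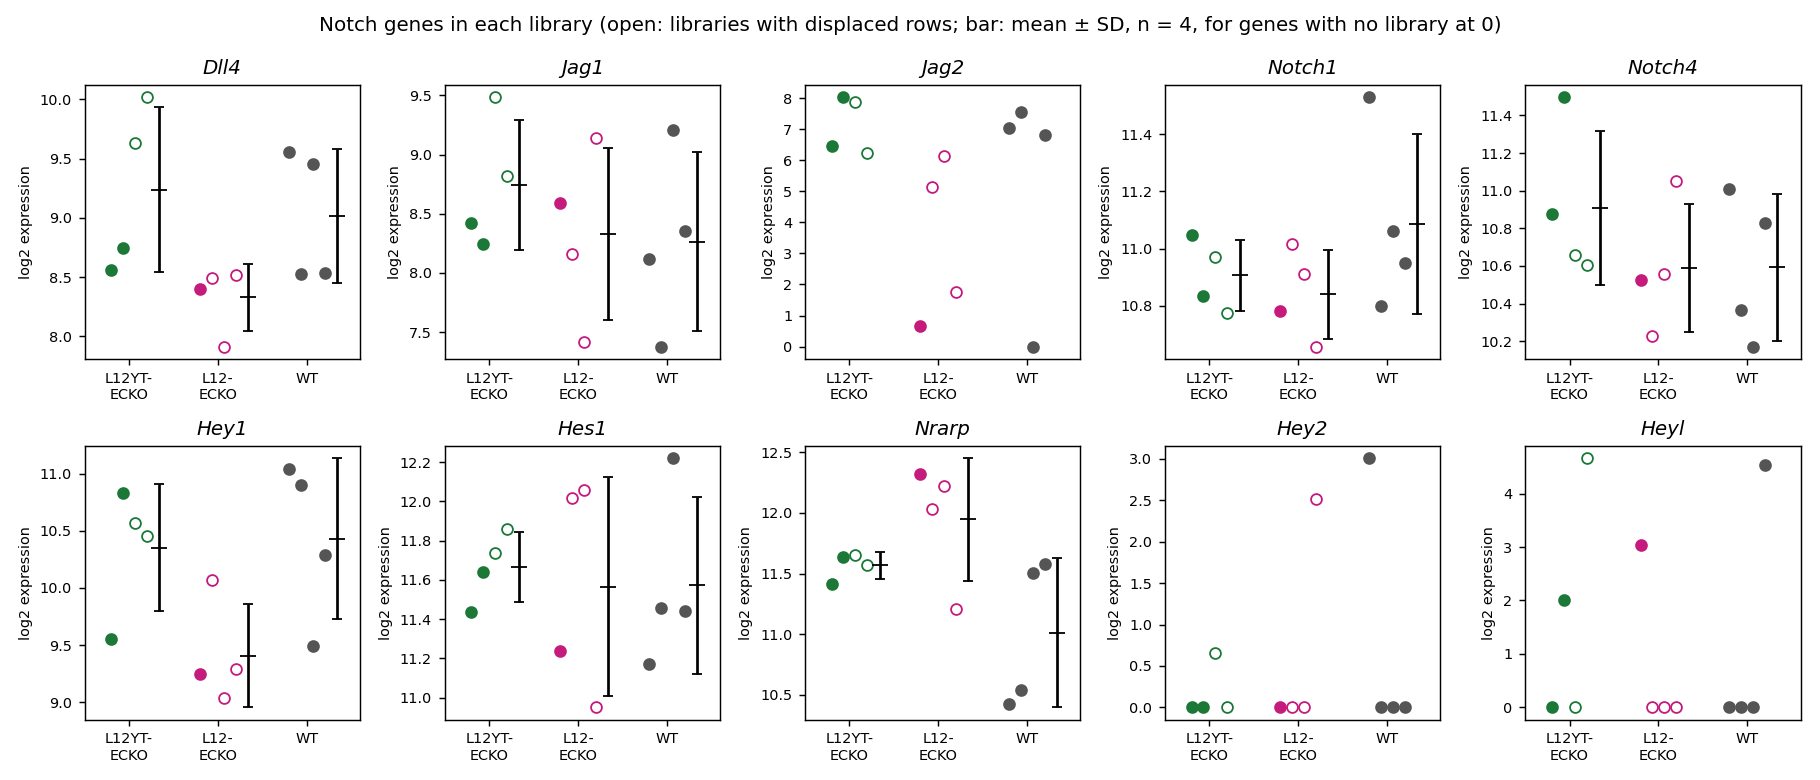
Deposited log2 expression of the 10 Notch genes in every library, by group from L12YT-ECKO to WT; open points are libraries with displaced rows, and bars give the mean and SD (n = 4) for genes with no library at 0. Dll4 and Hey1 sit lowest on average in L12-ECKO and Nrarp sits highest there, while Hey2 and Heyl are at 0 in most libraries.

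Dll4, the tip cell ligand, had 8.56, 8.75, 9.63 and 10.02 in the L12YT-ECKO libraries, 8.40, 8.49, 7.92 and 8.52 in L12-ECKO, and 9.56, 8.52, 9.46 and 8.53 in WT (log2 expression, replicates 1 to 4, as in the lists that follow). All 4 L12-ECKO libraries lay below all 4 WT libraries, but by 0.006 at the closest pair, 8.517 in L12-ECKO and 8.523 in WT. In WT 2 libraries lay just above the L12-ECKO values and 2 well above them, and in L12YT-ECKO the higher 2 were the libraries with displaced rows. Dll4 averaged 8.33 ± 0.28 in L12-ECKO and 9.02 ± 0.57 in WT (SD, n = 4 each), so that L12-ECKO minus WT was -0.69 on the log2 scale (SE 0.43, 95% interval -1.59 to 0.21, limma adjusted p = 0.528). Of all genes tested, 3.36% were lower in L12-ECKO than in WT without overlap. In L12YT-ECKO it averaged 9.24 ± 0.70 (SD, n = 4), above L12-ECKO by 0.91 (95% interval 0.008 to 1.81, limma adjusted p = 0.811), again without overlap, by 0.044 at the closest pair; 2.75% of all genes were higher in L12YT-ECKO than in L12-ECKO without overlap. With the batch as a covariate the differences were -1.16 for L12-ECKO against WT and 1.06 for L12YT-ECKO against L12-ECKO. Among the 7 libraries without displaced rows, 1 of them L12-ECKO, they were -0.62 and 0.25, and among the 5 with displaced rows L12YT-ECKO exceeded L12-ECKO by 1.51. None of these values passed the threshold. Dll4 is overlapped by the non-coding gene Gm14207 on the other strand, away from its 3′ end.

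Jag1, a Jagged ligand, had 8.42, 8.24, 9.48 and 8.82 in L12YT-ECKO, 8.59, 8.16, 7.42 and 9.14 in L12-ECKO, and 8.12, 7.38, 9.21 and 8.36 in WT. The 3 groups overlapped throughout, with WT alone spanning more than the distance between any means. The difference was 0.06 for L12-ECKO against WT (95% interval -0.99 to 1.11, limma adjusted p = 0.975), so a change of about 1 in either direction is within the interval.

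Jag2, the other Jagged ligand, had 6.46, 8.02, 7.87 and 6.22 in L12YT-ECKO, 0.65, 5.14, 6.12 and 1.76 in L12-ECKO, and 7.04, 7.57, 0 and 6.80 in WT. The 4 L12YT-ECKO libraries all lay above the 4 L12-ECKO libraries, by 0.104 at the closest pair, while WT included a library listed at 0. The value of L12-ECKO replicate 1, 0.652, is the lowest above 0 in that library. For L12YT-ECKO against L12-ECKO the difference was 3.73 (95% interval 0.18 to 7.27, limma adjusted p = 0.808), and for L12-ECKO against WT it was -1.93 (95% interval -5.48 to 1.61, limma adjusted p = 0.667). The second value became -3.72 without WT replicate 3, -1.20 without WT replicate 2 and -1.01 without L12-ECKO replicate 1, and was not called in any of these. With the batch as a covariate the 2 differences became 4.09 and -3.04, and among the libraries without displaced rows 6.59 and -4.70, both resting on 1 L12-ECKO library.

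The receptors varied least. Notch1 had 11.05, 10.84, 10.97 and 10.78 in L12YT-ECKO, 10.78, 11.02, 10.91 and 10.66 in L12-ECKO, and 11.53, 10.80, 11.06 and 10.95 in WT. Only WT replicate 1 stood above the remaining libraries, and the SD over all 12 was 0.222. The difference was -0.24 for L12-ECKO against WT (95% interval -0.77 to 0.29, limma adjusted p = 0.726) and -0.18 for L12YT-ECKO against WT (95% interval -0.71 to 0.35, limma adjusted p = 0.934). Notch1 shares its 3′ end with non-coding genes on the other strand, 0610009E02Rik and Gm13568, and the counting strand is not given, so their reads could not be separated.

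Notch4, a receptor found mainly in endothelium, had 10.87, 11.50, 10.66 and 10.61 in L12YT-ECKO, 10.53, 10.23, 10.56 and 11.05 in L12-ECKO, and 11.01, 10.37, 10.17 and 10.83 in WT. The groups overlapped, and the difference was -0.0038 for L12-ECKO against WT (95% interval -0.64 to 0.63, limma adjusted p = 0.998). L12YT-ECKO exceeded WT by 0.31 (95% interval -0.32 to 0.95, limma adjusted p = 0.895) and L12-ECKO by 0.32 (95% interval -0.32 to 0.95, limma adjusted p = 0.961).

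Hey1, a transcriptional repressor switched on by Notch, had 9.55, 10.83, 10.57 and 10.46 in L12YT-ECKO, 9.25, 10.07, 9.04 and 9.29 in L12-ECKO, and 11.04, 10.90, 9.49 and 10.29 in WT. In L12-ECKO, 3 of 4 libraries lay below every WT library, and replicate 2 lay inside the WT range. Hey1 averaged 9.41 ± 0.45 in L12-ECKO and 10.43 ± 0.70 in WT (SD, n = 4 each), a difference of -1.02 (SE 0.39, 95% interval -1.83 to -0.21, limma adjusted p = 0.282). In L12YT-ECKO it averaged 10.35 ± 0.56 (SD, n = 4), within 0.08 of WT, and above L12-ECKO by 0.94 (SE 0.39, 95% interval 0.13 to 1.75, limma adjusted p = 0.728), with 3 of 4 libraries above every L12-ECKO library. The interval for L12YT-ECKO against WT ran from -0.89 to 0.73. Hey1 in L12-ECKO differed from WT by -1.23 with the batch as a covariate and by -1.18 among libraries without displaced rows, where L12-ECKO has 1 library; WT has none with displaced rows. L12YT-ECKO exceeded L12-ECKO by 1.01 with the covariate, by 0.94 without displaced rows and by 1.05 with them, and none of these passed the threshold.

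Hes1, the related repressor, had 11.44, 11.64, 11.74 and 11.86 in L12YT-ECKO, 11.24, 12.02, 12.06 and 10.95 in L12-ECKO, and 11.17, 11.46, 12.22 and 11.44 in WT. The groups overlapped, with L12-ECKO replicate 4 lowest and WT replicate 3 highest of all, and L12-ECKO was -0.0065 from WT (95% interval -0.62 to 0.61, limma adjusted p = 0.997).

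Hey2 and Heyl, the further members of the Hey family, were near or below detection. Hey2 was listed at 0 in 9 of 12 libraries and read 0.652 in L12YT-ECKO replicate 3, 2.52 in L12-ECKO replicate 4 and 3.01 in WT replicate 1, the last being the lowest value above 0 in that library. Heyl was at 0 in 8 of 12 libraries and read 2.00 and 4.66 in L12YT-ECKO replicates 2 and 4, 3.03 in L12-ECKO replicate 1 and 4.53 in WT replicate 4. No difference between groups was detectable for either gene at values this low.

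Nrarp, an ankyrin-repeat protein that is switched on by Notch and damps it, was the member with the smallest p in L12-ECKO against WT. It had 11.41, 11.64, 11.65 and 11.57 in L12YT-ECKO, 12.32, 12.03, 12.22 and 11.21 in L12-ECKO, and 10.42, 10.54, 11.50 and 11.58 in WT. In L12-ECKO, 3 of 4 libraries lay above every WT library, while replicate 4 lay between the lower and the upper WT pair. Nrarp averaged 11.95 ± 0.51 in L12-ECKO and 11.01 ± 0.61 in WT (SD, n = 4 each), a difference of 0.94 (SE 0.31, 95% interval 0.29 to 1.58, limma adjusted p = 0.209). In L12YT-ECKO it averaged 11.57 ± 0.11 (SD, n = 4), a difference of 0.56 from WT (95% interval -0.09 to 1.21, limma adjusted p = 0.817) and of -0.38 from L12-ECKO (95% interval -1.03 to 0.27, limma adjusted p = 0.95). With the batch as a covariate L12-ECKO exceeded WT by 1.06, and among libraries without displaced rows by 1.31. The direction for Nrarp is opposite to that for Hey1, although both are known targets of Notch; neither passed the threshold. Nrarp is covered by the antisense gene Gm38287 from shortly after its start to its 3′ end, and reads of the pair could not be separated.

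**Figure D2:**
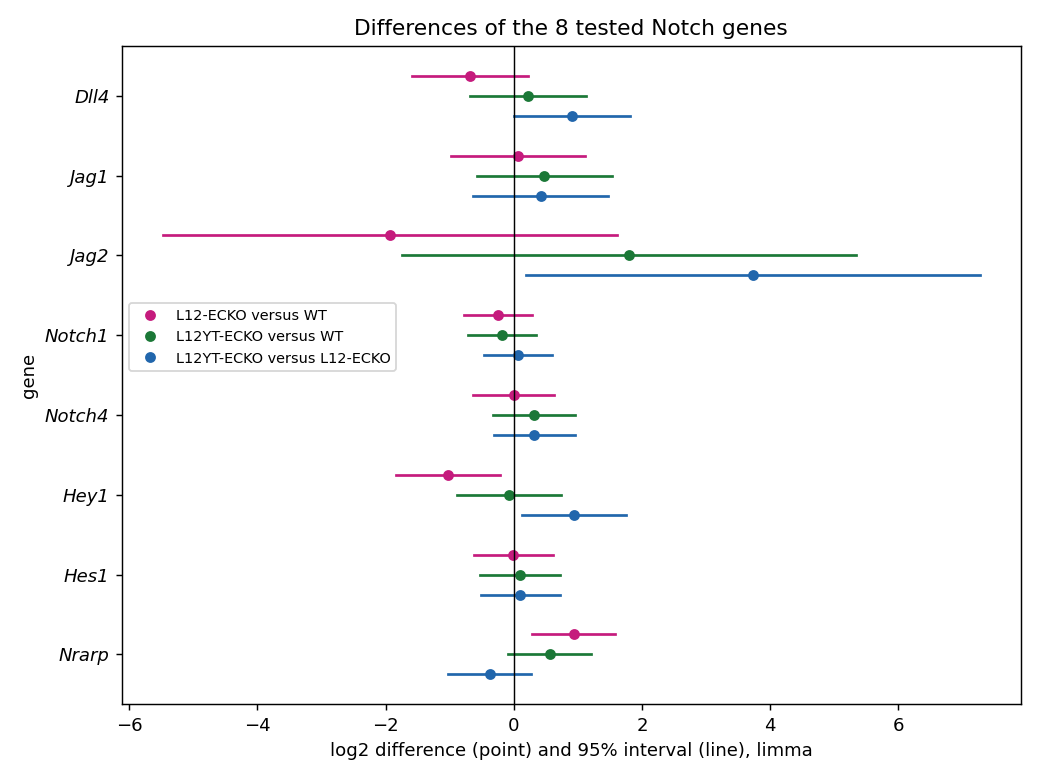
Log2 difference of each tested Notch gene in the 3 comparisons, from limma, with its 95% interval. Hey1 and Nrarp in L12-ECKO against WT, and Dll4, Jag2 and Hey1 in L12YT-ECKO against L12-ECKO, have intervals that leave out 0, and none was called after adjustment.

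Over the 8 tested genes the median log2 difference was -0.13 in L12-ECKO against WT, with 2 positive and 6 negative, beside -0.02 over all genes. It was 0.27 in L12YT-ECKO against WT (6 positive, 2 negative) beside 0.08 over all genes, and 0.37 in L12YT-ECKO against L12-ECKO (7 positive, 1 negative) beside 0.09. The groups did not overlap for 1, 0 and 2 of the 8 genes in these comparisons, beside 6.33%, 4.7% and 4.38% of all genes.

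The 10 mural cell markers summed to 48.5 to 102 CPM in L12YT-ECKO, 23.7 to 49.3 in L12-ECKO and 80.5 to 161 in WT. This is a small part of the endothelial sum, and 0 of the markers were at 0 in all libraries of any group. Within L12YT-ECKO, replicates 1 and 2, without displaced rows, summed to 102 and 95.1 CPM. Replicates 3 and 4, with displaced rows, summed to 52.3 and 48.5, near the L12-ECKO values, so group and batch are mixed here. Red cell and platelet markers overlapped between the groups, at 3006 to 10950 CPM in L12YT-ECKO, 1825 to 7931 in L12-ECKO and 2585 to 15556 in WT. Immune markers reached 7750 CPM in L12-ECKO replicate 1 and stayed at 280 or under in every other library. Fibroblast markers summed to 30.4 to 124 CPM in L12YT-ECKO, 44.2 to 88.9 in L12-ECKO and 90.7 to 155 in WT, epithelial markers to 186 to 623, 80.4 to 493 and 134 to 726, and liver markers to 31.9 to 194, 48.1 to 402 and 23.2 to 81.4 in the same order. The markers Lum, Foxj1, Ttr, Fgb, Fga, Cd79a, Cd3e and Afp were at 0 in all WT libraries. Cd79a and Afp were at 0 in all L12-ECKO libraries, and Cd3e, Itgam and Afp in all L12YT-ECKO libraries. The part of these in the results was not tested. Without L12-ECKO replicate 1 the differences of L12-ECKO from WT were -0.71 for Dll4, -0.97 for Hey1 and 0.81 for Nrarp.

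Genes whose values followed those of a Notch gene most closely over the 12 libraries were ranked by the mean absolute difference between their deviations from their own means, in log2 units. For Notch1 these were Eif4g1 at 0.0999, Timm13 at 0.114 and Mfge8 at 0.132. For Dll4 they were Ywhah at 0.278, She at 0.285 and Trim41 at 0.298, and for Hey1 Slc27a4 at 0.263, A430105I19Rik at 0.266 and Zpr1 at 0.273. For Nrarp they were Gm10012 at 0.221, Lman2 at 0.235 and Spcs2 at 0.241. The smaller values for Notch1 go with its own smaller spread.

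The rest of the Notch pathway was described by 88 further genes in 7 lists, of which 76 were tested. In L12-ECKO against WT, 6 of the 76 were called, 3 higher and 3 lower, beside 0.481% of all genes tested. All 6 were in the list of 26 genes linked to DLL4 and Notch signalling in endothelium, of which 25 were tested. In L12YT-ECKO against WT 0 of 76 were called by limma, beside 0.0086% of all genes. There 7 had an unadjusted p under 0.05, beside 6.24% of all genes. In L12YT-ECKO against L12-ECKO 1 was called, lower, beside 0.0688% of all genes. The median difference over the 25 linked genes was -0.30 in L12-ECKO against WT, beside -0.02 over all genes. These lists were chosen with earlier results known and are not independent evidence.

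**Figure D3:**
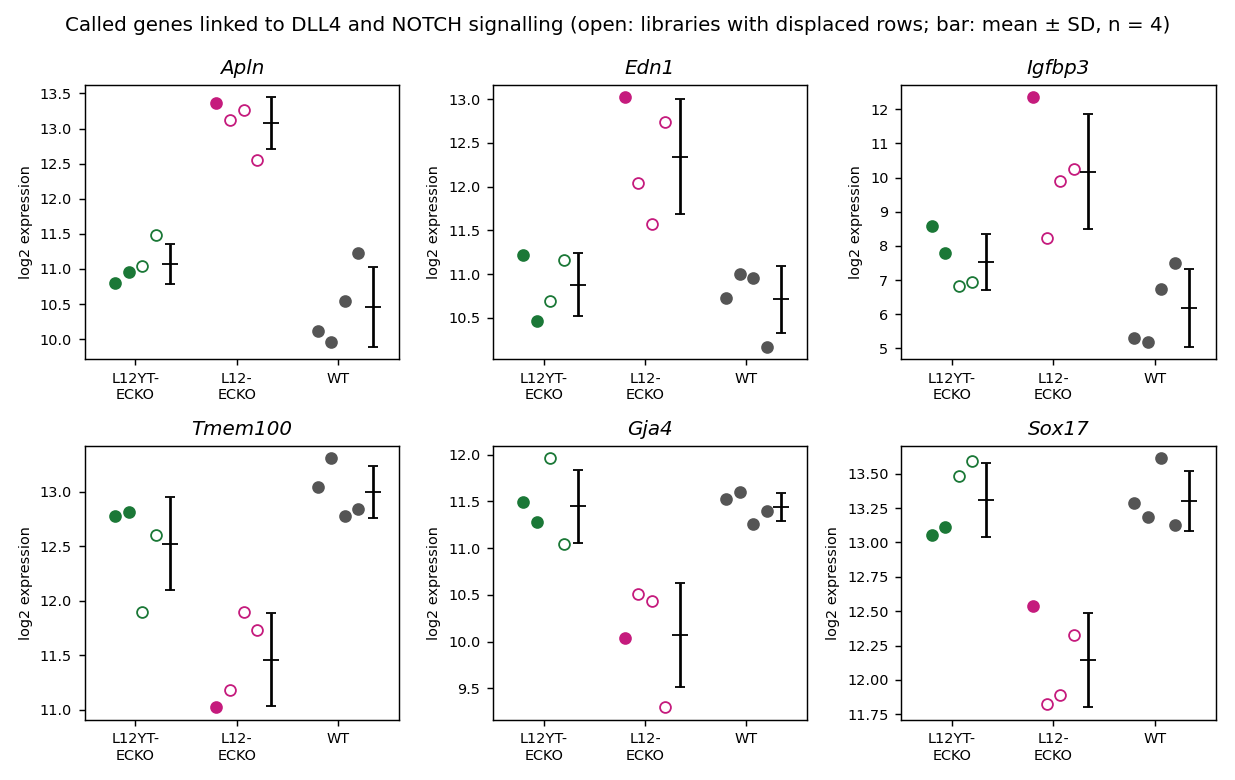
Deposited log2 expression in each library of the 6 linked genes called in L12-ECKO against WT; open points are libraries with displaced rows and bars give the mean and SD (n = 4). Apln, Edn1 and Igfbp3 are higher in L12-ECKO than in WT, and Tmem100, Gja4 and Sox17 lower, with no overlap between those 2 groups in any of the 6.

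Tmem100, an endothelial membrane protein downstream of ALK1 signalling, had 12.78, 12.82, 11.90 and 12.60 in L12YT-ECKO, 11.02, 11.18, 11.90 and 11.74 in L12-ECKO, and 13.05, 13.31, 12.78 and 12.85 in WT. It fell in L12-ECKO against WT by 1.54 (SE 0.26, limma adjusted p = 0.0112). Edn1, the vasoconstrictor endothelin, had 11.21, 10.46, 10.69 and 11.16 in L12YT-ECKO, 13.02, 12.04, 11.57 and 12.73 in L12-ECKO, and 10.72, 10.996, 10.95 and 10.17 in WT. It rose in L12-ECKO against WT by 1.63 (SE 0.32, limma adjusted p = 0.0285).

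Gja4, the arterial connexin 37, fell in L12-ECKO by 1.37 against WT (SE 0.30, limma adjusted p = 0.0481), and Sox17, an arterial transcription factor, by 1.16 (SE 0.22, limma adjusted p = 0.0268). Apln, the peptide apelin of tip cells, rose in L12-ECKO against WT by 2.61 (SE 0.30, limma adjusted p = 0.000378). Igfbp3, an IGF-binding protein, rose in L12-ECKO against WT by 3.99 (SE 0.76, limma adjusted p = 0.0268).

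In L12YT-ECKO against WT none of these 6 was called: the differences were -0.47 for Tmem100, 0.17 for Edn1, 0.002 for Gja4, 0.0058 for Sox17, 0.61 for Apln and 1.34 for Igfbp3. In L12YT-ECKO against L12-ECKO Apln fell by 2.01 (limma adjusted p = 0.00522), a call kept in 12 of 12 fits that left out 1 library and with the batch as a covariate (a fall of 1.99, limma adjusted p = 0.0194). Among the libraries without displaced rows, with 1 L12-ECKO library, the difference was -2.49 and was not called (limma adjusted p = 0.11), and among those with them it was -1.72 and was not called (limma adjusted p = 0.478). Apln was not called there without a variance trend either (limma adjusted p = 0.241). In L12YT-ECKO against L12-ECKO Sox17 differed by 1.16 (limma adjusted p = 0.0597) and Gja4 by 1.38 (limma adjusted p = 0.129), neither called. Edn1 differed by -1.46 (limma adjusted p = 0.13), Igfbp3 by -2.65 (0.419) and Tmem100 by 1.07 (0.224), none called. The groups were not fully apart for Igfbp3 and Tmem100.

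For L12-ECKO against WT, leaving out 1 library at a time kept the Apln call in 12 of 12 fits. Tmem100 was lost without WT replicate 2, Igfbp3 without L12-ECKO replicate 1 or 4 or WT replicate 1 or 2, Edn1 without L12-ECKO replicate 1, 2 or 4 or WT replicate 1, 2 or 4, Sox17 without L12-ECKO replicate 2 or 3 or WT replicate 1, 2 or 3, and Gja4 in all 12 fits. L12-ECKO replicate 1, without which Igfbp3 and Edn1 were lost, has the high immune markers, and it also differs in batch from the rest of its group. It has the highest value of both genes, 12.35 for Igfbp3 and 13.02 for Edn1. Both genes were also lost without L12-ECKO replicate 4, WT replicate 1 or WT replicate 2. Immune markers in those libraries summed to 14.8, 59.4 and 29.1 CPM. Every fit of this kind has fewer libraries, which by itself can lose a call. Whether immune cells had a part in these calls was not tested. With the batch as a covariate, Apln differed by 2.57 and Igfbp3 by 5.48 (limma adjusted p = 0.0089 for each). The other 4 were no longer called. Their differences were 1.88 for Edn1 (limma adjusted p = 0.0921), -1.49 for Tmem100 (0.115), -1.19 for Sox17 (0.147) and -1.43 for Gja4 (0.242). Without the covariate they were 1.63, -1.54, -1.16 and -1.37 in the same order. Among libraries without displaced rows, 1 of them L12-ECKO, these 4 differed by 2.31, -1.98, -0.77 and -1.40. Apln and Igfbp3 differed there by 2.91 and 6.165.

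In the other 6 lists of Notch pathway genes none was called by limma in any comparison. Of all 76 genes 16 had an unadjusted p under 0.05 in L12-ECKO against WT, 7 in L12YT-ECKO against WT and 12 in L12YT-ECKO against L12-ECKO. Of all genes tested, 12.2%, 6.24% and 6.08% did so in the same order. The linked list held 11, 2 and 11 of the 16, 7 and 12 genes. Among the other receptors and ligands, Notch3, a receptor of mural cells, had 0, 4.17, 1.39 and 4.11 in L12YT-ECKO, 1.36, 3.32, 0 and 1.76 in L12-ECKO, and 5.65, 4.64, 6.72 and 5.75 in WT. Both knockout groups lay below WT without overlap (limma adjusted p = 0.286 for L12-ECKO and 0.795 for L12YT-ECKO). Of all genes, 3.36% were lower without overlap in L12-ECKO against WT. In L12YT-ECKO against WT 4.7% did not overlap, in either direction. With values under 5 raised to 5, the L12-ECKO difference from WT went from -4.08 to -0.78. L12-ECKO replicate 3, where Notch3 is at 0, has 4.98 as its lowest value above 0. Notch3 is also 1 of the 10 mural markers above. Dll1, another Delta ligand, differed by 1.47 in L12-ECKO against WT (limma adjusted p = 0.415).

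Numb, an adaptor that removes Notch receptors from the cell surface, had 9.61, 10.96, 10.34 and 10.28 in L12YT-ECKO, 10.62, 9.97, 7.65 and 11.11 in L12-ECKO, and 11.26, 11.86, 11.10 and 10.95 in WT, a difference of -1.46 in L12-ECKO against WT (limma adjusted p = 0.336) that is led by L12-ECKO replicate 3. Neurl1b, a ubiquitin ligase for Notch ligands, differed by 0.69 (limma adjusted p = 0.386). Of the cleavage genes, Ncstn of the gamma-secretase differed by 1.45 (limma adjusted p = 0.537) and Adam10, the surface protease, by -0.51 (limma adjusted p = 0.73). The glycosylation genes Poglut1 and Rfng differed by -0.60 and 0.66 (limma adjusted p = 0.702 and 0.765), and the nuclear co-activators Maml1 and Kat2b by 2.58 and 0.73 (limma adjusted p = 0.482 and 0.491), all in L12-ECKO against WT. Single libraries moved several of these: Adam10 turned to 0.12 without L12-ECKO replicate 2, Maml1 was 1.05 without WT replicate 2, Kat2b 0.45 without WT replicate 3, Ncstn 0.86 without WT replicate 1 and Numb -0.73 without L12-ECKO replicate 3. Leaving out 1 library gave -0.90 to -0.32 for Poglut1 and 0.28 to 1.18 for Rfng.

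Bhlhe40, a further transcriptional repressor, differed by 1.66 in L12-ECKO against WT (limma adjusted p = 0.505). Myc was listed at 0 in all 4 WT libraries and read 0, 5.35, 6.08 and 6.42 in L12YT-ECKO and 9.06, 8.98, 0 and 3.64 in L12-ECKO, with a limma adjusted p of 0.276 for L12-ECKO against WT. No fold is given for Myc, since WT is at 0 and the depth is unknown.

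**Figure D4:**
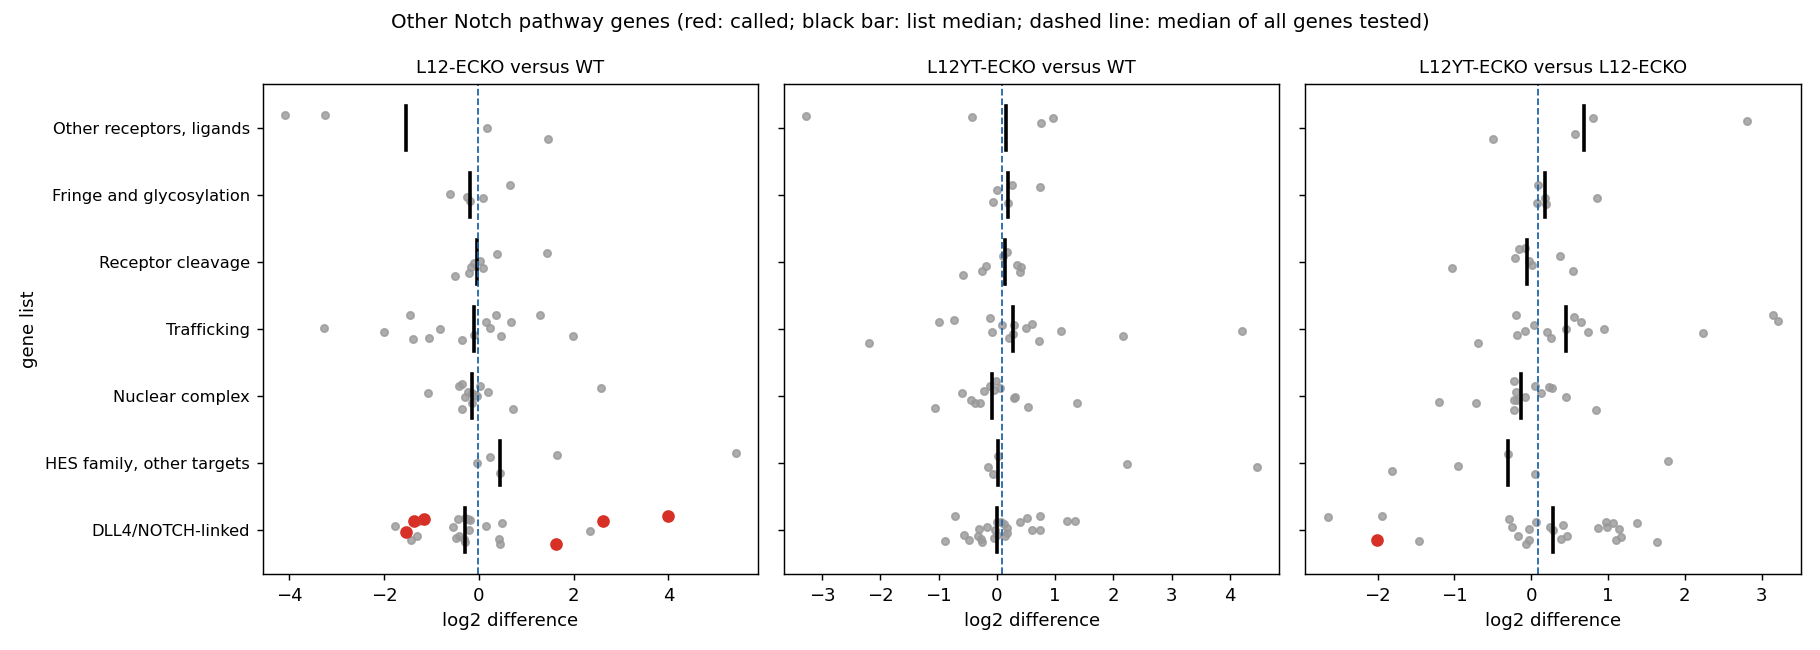
Log2 difference of every tested gene of the 7 lists of genes in the Notch pathway or linked to it, in the 3 comparisons. Genes are grouped by list, with called genes in red, list medians as black bars and the median of all genes as a dashed line. The called genes are all among those linked to DLL4 and Notch signalling, where Apln is the only one called in both L12-ECKO against WT and L12YT-ECKO against L12-ECKO.

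**Figure D5:**
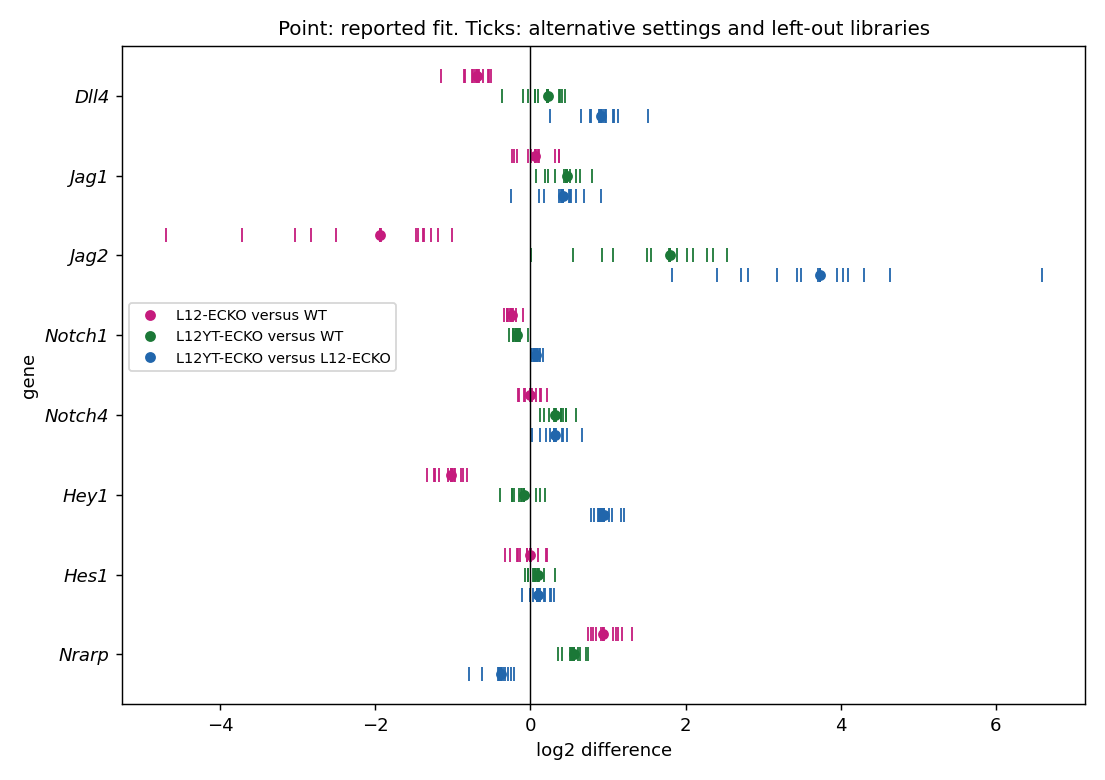
Log2 difference of the tested Notch genes under the reported setting and under each alternative. Hey1 and Dll4 stayed negative and Nrarp positive in all 22 alternatives for L12-ECKO against WT. Not all are separate checks of sign, since changing the filter or variance prior, or leaving out an L12YT-ECKO library, cannot move the estimate. No alternative called any of the 8 genes.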

How the data were processed

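RNA had been extracted with Trizol and sequenced with the QuantSeq 3′ kit, per the labels' protocols. Bowtie2, edgeR and the mm10 build are named, per the submitters' processing notes, with roles and versions not given in the sources used here. Deposited tables hold log2 expression, already normalized by the authors. The values look quantile normalized: over the 5000 highest ranks the libraries lay within 0.168 of each other, so a difference in total RNA is removed. Read depth is unknown.

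Of 24421 genes per table, 24394 were listed in all 12; 27 stand under date names in 2 libraries. 34 rows (32 displaced and 2 exchanged in 5 libraries) were not tested. Values were used as deposited, with no pseudocount; CPM for the filter is 2 raised to the value, scaled to a common library total. limma 3.58.1 (R 4.3.3, statmod 1.5.0) fitted a mean per group over 12 libraries with 9 residual degrees of freedom, a trended robust prior and Benjamini-Hochberg adjustment over 11634 genes. The fit was tested on simulated data. Groups came from the sample titles.

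The genes and lists were chosen with earlier results of these data known. Named genes were all 10 members, the called genes of each list or else the 2 with the smallest p in L12-ECKO against WT, and the 3 most alike for each of 4 members. Coordinates and overlaps are from GENCODE M21. Alternatives varied the filter, low values, centring, variance prior, batch, pairing and libraries.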

Additional observations from a re-analysis of the deposited data

Results flagged for a closer look

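In groups of 4 libraries, 1 value stood far from the other 3 by Dixon's 95% criterion (its gap to the nearest value over the range) in 6 of 30 groups tested. Chance flags about 1 in 20 such groups, but that share cannot be set beside 5 of the 6, all for Hey2 and Heyl: with 3 libraries at 0, any value above 0 meets the criterion. Jag2 was at 0 in WT replicate 3, while the other WT libraries read 6.80 to 7.57. Hey2 read 0.652 in L12YT-ECKO replicate 3, 2.515 in L12-ECKO replicate 4 and 3.009 in WT replicate 1, the other 3 libraries of each group being at 0. Heyl read 3.034 in L12-ECKO replicate 1 and 4.53 in WT replicate 4, the other 3 libraries of each group being at 0. The cause was not tested.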

How the results depend on the processing

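None of the 8 Notch genes was called by limma in any of 70 fits, the lowest adjusted p being 0.1. In L12YT-ECKO against L12-ECKO, 3 of the 8 had an unadjusted p under 0.05 in limma. That count was 0 with no variance trend, 3 with the batch as a covariate and 0 to 3 leaving out 1 library. For L12-ECKO against WT there were 22 alternatives, several of which cannot move the estimate. They gave -1.16 to -0.51 for Dll4, -1.33 to -0.82 for Hey1, -4.70 to -1.01 for Jag2 and 0.74 to 1.31 for Nrarp. The uncalled differences of Jag1, Notch4 and Hes1 changed sign in some. Of all genes, 56 were called in L12-ECKO against WT; this became 21 with no filter, 7 with no variance trend, 15 with the batch as a covariate, 30 with only the 2 groups, and 15 to 80 leaving out 1 library (over 1.5 times fewer without L12YT-ECKO replicate 2 or 3, any L12-ECKO replicate, or WT replicate 1, 2 or 4). In L12YT-ECKO against WT 1 gene was called, 0 with no variance trend (687 at an unadjusted p under 0.05 in limma) and 1 to 3 leaving out 1 library, 3 without WT replicate 1. In L12YT-ECKO against L12-ECKO 8 were called, 3 with no variance trend, 14 among libraries without displaced rows, 0 among those with them (396 at an unadjusted p under 0.05 in limma), 5 with only the 2 groups, and 4 to 9 leaving out 1 library (over 1.5 times fewer without L12YT-ECKO replicate 1, 2 or 3, L12-ECKO replicate 3 or WT replicate 2). No pairing of the libraries by replicate number was detected: same-numbered deviations correlated at -0.0467 to 0.0583, and 4 of 12 libraries matched their own number best. A pairing that is weak or limited to few genes could escape this check over all tested genes. With the replicate number as a block, 43, 1 and 6 genes were called, and 0 of the Notch genes. The cause of these changes was not tested. Read depth is unknown, Hey2 and Heyl are at 0 in most libraries, and WT has no library with displaced rows.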
